A study of Mus musculus with 2 samples.

Results

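The genes described here are 40 genes that drive, carry out or restrain the cell division cycle, taken by their symbols from the 55536 Ensembl genes of the deposited tables. They fall into 7 genes of G1, 12 of S phase, 18 of mitosis and 3 inhibitors of the cyclin-dependent kinases. All 40 symbols were found, each with 1 identifier. The RNA was that of nuclei, isolated as a fraction of C57BL/6J mouse macrophages grown from bone marrow (BMDM), which are primary phagocytes. The cells were exposed to 100 ng/ml Lipid A for 12 h, left without it for 12 h, and then given 100 ng/ml Lipid A again for 20 min. Lipid A is the part of bacterial lipopolysaccharide that macrophages sense through Toll-like receptor 4.

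There were 2 libraries, both of this 1 group, made from 1 µg of RNA in replicate 1 and 500 ng in replicate 2, so input and replicate cannot be told apart. The labels call them biological replicates and give both the same donor, and they do not say whether the cells came from separate mice or cultures. Sex and age were not collected. The fraction is described as nucleoplasmic in the sample description and as nuclear in the sample characteristics. No cytoplasmic fraction was analysed here, and the purity of the nuclear fraction was not tested. Untreated cells were not analysed here, so no value below is a response to Lipid A, and with 1 library on each side no test is possible. Depth was 21954179 counts in replicate 1 and 17739520 counts in replicate 2, and a count of 0 allows up to 0.137 and 0.169 CPM (counts scaled to the library's counts in genes), counting error only. Mitochondrial genes held 3.52% and 6.37% of the counts.

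A cell enters the cycle when growth signals raise the D cyclins, which activate kinases that inactivate the retinoblastoma proteins and free E2F factors. E2F then drives the E cyclins and the genes that license and copy DNA. In resting cells the DREAM complex represses these genes, and later the MuvB complex joins B-Myb and FoxM1 to switch on the mitotic genes, which condense and separate the chromosomes. Inhibitors such as p21 (Cdkn1a), p27 (Cdkn1b) and p18 (Cdkn2c) block the kinases. Marrow precursors divide under colony-stimulating factor, and macrophages slow or stop dividing as they mature. It is known from cultured macrophages that lipopolysaccharide stops their division.

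The libraries carried the RNA of macrophages. All 10 macrophage markers were above 1 TPM (a level corrected for transcript length, with the same total in both libraries), with summed levels of 3974 TPM in replicate 1 and 4617 TPM in replicate 2. Ctsb, a lysosomal protease, had 1448 and 1655 TPM, and Lyz2, the macrophage lysozyme, had 1231 and 1590 TPM. None of 8 progenitor and precursor markers reached a mean of 1 TPM, and they summed to 0.720 and 1.84 TPM. Kit, the stem cell factor receptor, had 0.48 and 0.93 TPM, Prtn3 had 0 and 0.64 TPM, and Elane and Ms4a3, both of neutrophil precursors, were at 0. The erythroid list summed to 1.90 and 1.12 TPM, most of it from Alas2 with 1.73 and 0.67 TPM, beside Hbb-bs with 0.17 and 0.45 TPM. The lymphoid list summed to 0.0800 and 0.450 TPM, led by Cd79a (0.03 and 0.2 TPM). The stromal list summed to 0.230 and 0.410 TPM, led by Col1a2 (0.03 and 0.23 TPM) and Cdh5 (0.09 and 0.1 TPM). The part of such cells in the cell cycle values was not tested. In bulk RNA, fewer dividing cells and less RNA per cell cannot be told apart.

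The promoters of the 4 genes printed here carry letters through which cell cycle genes are known to be switched. They come from S phase, mitosis and the inhibitors. Within their groups they are rich in matches, so they are not typical of these groups. Each runs 5′ to 3′ over the 250 bases before the RefSeq start (build GRCm38.p6), with matches in capitals. Both strands were searched for TTTGAA and its variant TTCGAA, forms of the cell cycle homology region (CHR) that MuvB binds, for CCAAT, which NF-Y binds, for the E2F form TTCCCGC, its variant TTGGCGC and a further form spelled TTCGCGC, and for the E-box CACGTG, which Myc and Max bind. TTCGAA and the E-box read the same on both strands, and the letters of TTGGCGC and of the reverse of TTCGCGC overlap in Mcm6.
Mcm6, chr1:128359706-128359955, minus strand: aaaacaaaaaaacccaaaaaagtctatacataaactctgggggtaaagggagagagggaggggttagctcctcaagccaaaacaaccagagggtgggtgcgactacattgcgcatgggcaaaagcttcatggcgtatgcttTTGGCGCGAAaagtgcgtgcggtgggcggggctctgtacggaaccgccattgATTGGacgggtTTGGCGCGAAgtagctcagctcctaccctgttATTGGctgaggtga
Mki67, chr7:135716380-135716629, minus strand: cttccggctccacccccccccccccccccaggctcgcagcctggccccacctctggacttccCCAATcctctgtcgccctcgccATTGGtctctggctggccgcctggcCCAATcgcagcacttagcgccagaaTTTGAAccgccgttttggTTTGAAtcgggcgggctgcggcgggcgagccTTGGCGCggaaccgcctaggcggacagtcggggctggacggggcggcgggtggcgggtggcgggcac
Top2a, chr11:99024190-99024439, minus strand: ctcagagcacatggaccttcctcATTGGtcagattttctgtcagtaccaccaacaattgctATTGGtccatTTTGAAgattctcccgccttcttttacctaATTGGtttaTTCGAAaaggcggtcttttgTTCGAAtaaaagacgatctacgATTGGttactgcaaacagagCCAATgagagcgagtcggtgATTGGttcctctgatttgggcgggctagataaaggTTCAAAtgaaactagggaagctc
Cdkn1b, chr6:134920151-134920400, plus strand: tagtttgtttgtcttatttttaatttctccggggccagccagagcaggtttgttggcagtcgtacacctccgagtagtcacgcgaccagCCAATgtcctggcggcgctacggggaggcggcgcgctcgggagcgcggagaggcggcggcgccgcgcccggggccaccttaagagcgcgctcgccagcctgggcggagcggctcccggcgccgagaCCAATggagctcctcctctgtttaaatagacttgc

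In Mcm6, a subunit of the replicative helicase, the capitals mark 2 CCAAT and 4 E2F matches, the E2F ones placed as 2 overlapping pairs. In Mki67, which coats mitotic chromosomes and is the usual marker of dividing cells, they mark 2 CHR, 3 CCAAT and 1 E2F match. Top2a, the topoisomerase that untangles sister chromatids, held 4 CHR and 6 CCAAT matches, and Cdkn1b held 2 CCAAT matches and no other. A promoter entry was found for 31 of the 40 genes. A CHR match was present in 6 of the 14 mitotic genes with an entry (42.9%), in 2 of 11 S phase genes (18.2%) and in 17.1% of all 32851 promoter windows. CCAAT was present in 13 mitotic genes (92.9%), 8 S phase genes (72.7%) and 33.8% of all windows. An E2F form was present in 5 S phase genes (45.5%), Mcm5, Mcm6, Mcm7, Rrm1 and Cdc6, in 3 mitotic genes (21.4%) and in 6.69% of all windows. The 3 G1 genes with an entry, Ccnd3, Ccne1 and E2f1, and the inhibitor gene Cdkn1a held none of these letters, and Cdkn2c held 1 E2F match. Cdt1 of S phase and Birc5 of mitosis held none either, and Tyms held none but the E-box. The RefSeq starts of E2f1, Mcm7, Cdkn2c and Cdc6 lie 466, 539, 433 and 350 bases downstream of the start in GENCODE M21, so their windows lie inside the annotated gene. The E-box was found in Tyms alone among the 31, and in 6.02% of all windows. These are matches of letters in this window and show no binding.

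By the median of their genes, the inhibitors stood above every phase, and the mitotic genes were the lowest. The median of the mean TPM was 3.92 for the G1 genes, 3.01 for the S phase genes, 1.06 for the mitotic genes and 11.6 for the 3 inhibitors. In replicate 1 the medians were 4.30, 2.98, 0.790 and 6.58 TPM in the same order, and in replicate 2 they were 3.03, 2.77, 1.42 and 16.7 TPM. Both libraries thus placed the 4 groups in the same order, although G1 and S phase lay close together in replicate 2. The S phase median was 2.84 times the mitotic median, and the inhibitor median was 2.97, 3.86 and 11.0 times the G1, S phase and mitotic medians. With 3 genes, the inhibitor median is the value of 1 gene, Cdkn1b. Cdkn2c, with a mean of 1.29 TPM, lay below the G1 and S phase medians, so the order is not one of every inhibitor. Of the 40 genes 29 had a mean of 1 TPM or more, against 45.6% of all 22028 protein-coding genes, and 6 had 5 TPM or more, against 31.2%. The 40 genes had a median of 1.85 TPM, against 0.430 TPM for all protein-coding genes and 8.91 TPM for those at 1 TPM or more.

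**Figure D1:**
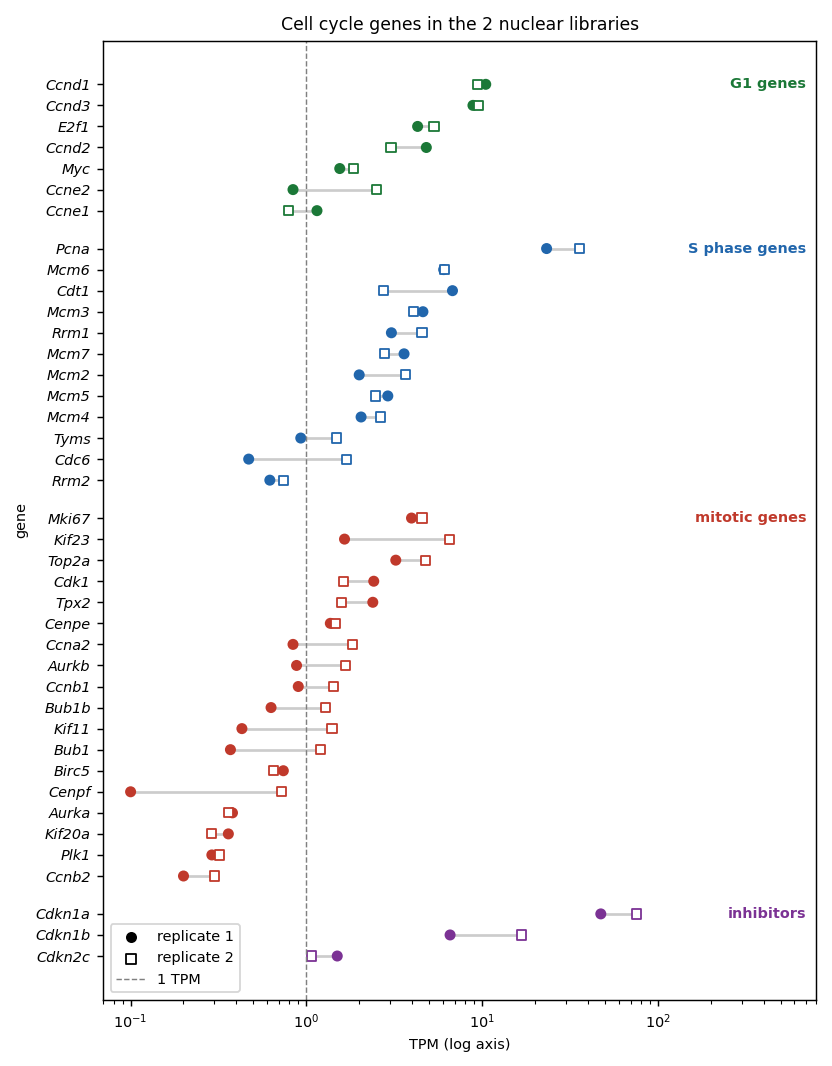
TPM of each of the 40 genes on a log axis, with a filled circle for replicate 1 and an open square for replicate 2, grouped as G1, S phase, mitotic and inhibitor genes, with a dashed line at 1 TPM. Cdkn1a lies farthest right with 47.43 and 75.67 TPM, Pcna follows with 23.31 and 35.91 TPM, and 9 of the 18 mitotic genes have a mean under 1 TPM.

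The D cyclins Ccnd1 and Ccnd3 led the G1 genes. Ccnd1 (chr7:144929931-144939925 in mm10), the cyclin that growth factors induce, measured 10.50 and 9.42 TPM in replicates 1 and 2, a mean of 9.96 ± 0.764 (SD, n = 2). Ccnd3 had 8.88 and 9.56 TPM, and Ccnd2 had 4.82 and 3.03 TPM. Ccnd1 and Ccnd3 did not differ beyond their spread, while Ccnd1 was 2.18 times Ccnd2 in replicate 1 and 3.11 times in replicate 2. The exons of Ccnd1 share 23.4% of their bases with LTO1 on the opposite strand, which had 570.27 and 407.56 counts. The use of strand in counting was not given in the sources used here, so reads in that stretch may not be separated.

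The other G1 genes were lower than Ccnd1 and Ccnd3. E2f1, the transcription factor released from the retinoblastoma protein, had 4.30 and 5.33 TPM. Myc, which drives growth and cyclin genes, had 1.55 and 1.86 TPM from 83 and 57 counts. Of the E cyclins, which start S phase with Cdk2, Ccne1 had 1.15 and 0.79 TPM from 41 and 29 counts. Ccne2 had 0.84 and 2.50 TPM from 49.80 and 139.39 counts, and its exons share 17.4% of their bases with Ints8 on the opposite strand. The 2 libraries were close for E2f1 and Myc and lay apart for Ccne2.

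Pcna, the clamp that holds DNA polymerase on its template, was far above the other S phase genes, at 23.31 and 35.91 TPM in replicates 1 and 2 (mean 29.6 ± 8.91 TPM, n = 2). It was 3.85 and 5.88 times Mcm6, which had the next highest mean. Of the 31-base words of its main coding transcript, 38.0% also occur in transcripts of other genes; its copy Pcna-ps2 had 2.16 and 7.22 counts, beside 800.84 and 767.78 counts for Pcna.

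The 6 subunits of the Mcm2 to Mcm7 helicase, which are loaded on origins in equal number, had means of 2.35 to 6.08 TPM, a range of 2.59-fold. Mcm6 had 6.05 and 6.11 TPM, and Mcm4, the lowest mean, had 2.05 and 2.64 TPM. Mcm2 had 2.00 and 3.66 TPM, Mcm5 had 2.91 and 2.48 TPM, Mcm7 had 3.60 and 2.79 TPM and Mcm3 had 4.61 and 4.06 TPM. Mcm6 was highest in both libraries, and the order of Mcm2, Mcm4, Mcm5 and Mcm7 was not the same in both. Mcm7 shares 47.6% of the words of Mcm7-201 with other genes.

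The loaders of the helicase differed between the libraries. Cdt1 had 6.79 and 2.75 TPM from 388 and 116 counts, and Cdc6 had 0.47 and 1.70 TPM from 42 and 72 counts. Of the genes for DNA precursors, Rrm1, the large subunit of ribonucleotide reductase, had 3.05 and 4.55 TPM. Its partner Rrm2, which limits the enzyme outside S phase, had 0.62 and 0.74 TPM from 33 and 30 counts, and Tyms, thymidylate synthase, had 0.93 and 1.48 TPM from 60 and 89 counts. Both libraries placed Rrm1 above Rrm2.

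Mki67, Kif23 and Top2a had the highest means of the mitotic genes. Mki67 (chr7:135689784-135716361) measured 3.97 and 4.55 TPM in replicates 1 and 2, from 1127 and 917 counts, the highest count of the mitotic list in both libraries. Top2a had 3.23 and 4.75 TPM. Kif23, a kinesin of the midzone and midbody in cell division, had a mean of 4.08 ± 3.44 TPM from values of 1.65 and 6.52 TPM, the second the highest of the list in that library, and its level depends on the table used. Tpx2, which activates Aurora A on the spindle, had 2.39 and 1.59 TPM, and Cenpe, the kinetochore motor that aligns chromosomes, had 1.37 and 1.47 TPM.

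The kinase and cyclins that trigger mitosis had few counts. Cdk1, the mitotic kinase, had 2.42 and 1.63 TPM from 59 and 37 counts. Its partners had lower means, although Ccna2 was above Cdk1 in replicate 2. Ccna2 had 0.84 and 1.83 TPM and Ccnb1 had 0.90 and 1.43 TPM. Ccnb2 had 0.20 and 0.30 TPM, from 8 counts in each library. Of the TPM of Cdk1, 54.8% and 78.0% lay in transcripts annotated as retaining an intron, a split that depends on the table used. The coding transcripts Cdk1-201 and Cdk1-202 had 0.36 and 0 TPM in replicate 2, below Ccna2-201 with 1.0 TPM. Ccna2 shares 12.5% of its exon bases with Exosc9 on the opposite strand, and 47.6% of the words of Ccnb1-202 occur in other genes. The kinases Aurka (0.38 and 0.36 TPM) and Plk1 (0.29 and 0.32 TPM), which build the spindle, lay below Aurkb (0.88 and 1.67 TPM), the kinase of the chromosomal passenger complex. Aurkb rested on 36 and 22 counts, with 31.8% and 86.8% of its TPM in transcripts annotated as retaining an intron. Its coding transcript Aurkb-201 had 0.60 and 0 TPM, and Aurkb-202 had 0 and 0.22 TPM. In replicate 2 its coding level thus lay below Aurka and Plk1. For Plk1, 17 and 13 counts stood beside 43 and 42 counts of its copy Plk-ps1.

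The remaining mitotic genes all had means under 1 TPM. Birc5, the passenger complex subunit survivin, had 0.74 and 0.65 TPM. The spindle checkpoint genes Bub1 and Bub1b had 0.37 and 1.2 TPM and 0.63 and 1.29 TPM. Kif11, the kinesin that pushes the poles apart, had 0.43 and 1.40 TPM, and Kif20a, a midzone kinesin whose exons share 29.3% of their bases with Cdc23 on the opposite strand, had 0.36 and 0.29 TPM. Cenpf, a kinetochore protein, had 0.10 and 0.72 TPM from 31 and 39 counts; the deposited length of the gene was 10148.56 and 2872.61 bases, a length that depends on which transcripts were called in each library. In all, 12 of the 18 mitotic genes had fewer than 100 counts in both libraries, and 6 were at 1 TPM or more in both, so single values of this list are imprecise.

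The inhibitors were unequal. Cdkn1a (chr17:29090976-29100727), the p53 target p21, measured 47.43 and 75.67 TPM in replicates 1 and 2 (mean 61.5 ± 20.0 TPM, n = 2) from 2182 and 2378 counts, more than any other of the 40 genes. Its exons share 7.7% of their bases with AC167363.2 on the opposite strand, which had 414 and 301 counts. Cdkn1b (chr6:134920401-134925513), p27, had 6.58 and 16.70 TPM (mean 11.6 ± 7.16 TPM), and Cdkn2c, which blocks Cdk4 and Cdk6, had 1.5 and 1.07 TPM. Cdkn1a was 7.21 and 4.53 times Cdkn1b, and 4.52 and 8.03 times Ccnd1. Cdkn1b was 0.627 times Ccnd1 in replicate 1 and 1.77 times in replicate 2, so the order of these 2 genes differed between the libraries. Counted without length, the 3 inhibitors held 0.0133% of the counts of replicate 1, with a 95% Wilson interval of 0.0128% to 0.0138%, and 0.0205% of those of replicate 2, with 0.0199% to 0.0212%. The 18 mitotic genes held 0.0111% (0.0107% to 0.0115%) and 0.0123% (0.0118% to 0.0129%). The 12 S phase genes held 0.0138% (0.0133% to 0.0143%) and 0.0139% (0.0133% to 0.0144%). For the 7 G1 genes it was 0.0124% (0.0120% to 0.0129%) and 0.00964% (0.00920% to 0.0101%). These shares are sums over lists of unequal size, so their order is not that of single genes. By them the S phase genes stood above the inhibitors in replicate 1, with overlapping intervals. The G1 genes stood below the mitotic genes in replicate 2. The median CPM per gene kept the order of the TPM medians. For inhibitors, G1, S phase and mitotic genes it was 30.3, 14.8, 8.61 and 1.96 in replicate 1. In replicate 2 it was 69.4, 14.1, 8.37 and 2.31.

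Among other genes of the same pathway, in lists chosen with earlier results of these data known, the mitosis list lay below the replication list. The mitosis and anaphase-promoting complex list of 27 genes had a median of 1.27 TPM with 16 at 1 TPM or more, and the origin and replication list of 31 had 3.06 TPM with 26. The retinoblastoma, E2F and DREAM list of 19 had 4.47 TPM with 17, and the kinases and other cyclins, 10 genes, had 8.82 TPM with 9. The 13 genes of p53, the checkpoint and growth arrest had 10.8 TPM and all reached 1 TPM. Mdm2, the p53 target that degrades p53, had 87.94 and 96.12 TPM, and the antiproliferative genes Btg2 and Btg1 had 26.04 and 37.78 TPM and 25.62 and 37.66 TPM. The 5 other inhibitors did not share the level of Cdkn1a, with a median of 0.195 TPM and only Cdkn2d (2.76 and 1.70 TPM) above 1 TPM. Cdkn1c had 0.36 and 0.84 TPM, Cdkn3 had 0.19 and 0.20 TPM, and Cdkn2a, singled out after its values were seen, was at 0 in both libraries.

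The highest genes of the remaining pathway lists included kinases, pocket proteins and replication genes. Cdk4 and Cdk6, the partners of the D cyclins, had 19.56 and 33.77 TPM and 22.74 and 25.21 TPM, and Cdk8, of the Mediator complex, had 15.50 and 25.44 TPM. Of the pocket proteins, which hold E2F, Rb1 had 19.33 and 34.68 TPM and Rbl1 had 14.32 and 13.33 TPM, beside 12.30 and 15.18 TPM for the MuvB subunit Rbbp4. The clamp loader gene Rfc2 had 53.23 and 54.47 TPM, and the origin recognition genes Orc4 and Orc3 had 24.33 and 46.49 TPM and 23.66 and 35.93 TPM. The mitosis list was led by Pttg1, securin, with 20.40 and 19.25 TPM, by Incenp with 13.50 and 16.76 TPM, and by Fzr1, the G1 activator of the anaphase-promoting complex, with 8.10 and 5.68 TPM. Max, the partner of Myc, had 54.42 and 69.39 TPM, and its other partners Mxd1 and Mnt, which oppose Myc, had 33.63 and 32.84 TPM and 10.03 and 10.85 TPM. All 3 were above Myc in both libraries. The 8 genes of this list, which also holds the Myc relatives Mycn and Mycl, had a median of 2.03 TPM with 4 at 1 TPM or more.

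**Figure D2:**
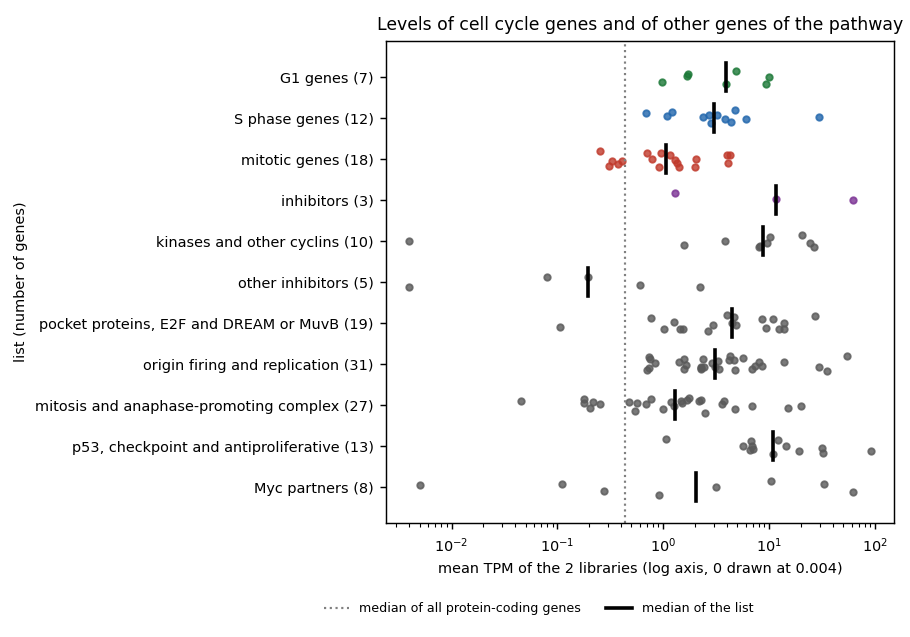
Mean TPM of each gene of the 4 groups and of the 7 other pathway lists on a log axis, with a bar at the median of each list and a dotted line at the median of all protein-coding genes, 0.430 TPM. The medians of the 3 inhibitors (11.6 TPM) and of the p53 and checkpoint list (10.8 TPM) lie farthest right. The median of the 5 other inhibitors (0.195 TPM) lies left of the dotted line. Of these genes, Cdkn2d (2.23 TPM) and Cdkn1c (0.600 TPM) lie right of it.

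The libraries are replicates, so their difference shows spread, not an effect. The difference is given as log2 of TPM + 1 in replicate 1 over replicate 2, with the median over all 12952 genes at 1 TPM or more (-0.29) subtracted, and it understates the change of low genes. Of the 29 genes at a mean of 1 TPM or more, 16 were higher and 13 lower in replicate 1, where the centring splits all such genes evenly. One gene, Cdt1, was past 2-fold higher in replicate 1 (background 4.51%) and 1 gene, Kif23, was past 2-fold lower (background 2.78%). These backgrounds cover all 12952 genes. Of the 10050 protein-coding genes among them, 308 were past 2-fold higher and 112 past 2-fold lower. The medians were 0.16 for 6 G1 genes, 0.03 for 11 S phase genes, -0.07 for 9 mitotic genes and -0.37 for the 3 inhibitors. The direction of the G1, S phase and mitotic medians depended on the scaling or table: without centring they were -0.13, -0.26 and -0.35, and from the read-based table they were 0.26, 0.21 and 0.15. The SD over single genes was 0.48, 0.54, 0.57 and 0.76 in the 4 groups, and 0.71 over all 12952 genes. Over the 10050 protein-coding genes among them it was 0.48, the value of the G1 genes and below that of the other groups.

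Cdt1, with 6.79 and 2.75 TPM, differed by 1.34 on the centred TPM scale and by 1.31 in CPM without centring. Kif23, with 1.65 and 6.52 TPM, differed by -1.22 in TPM and -0.89 in CPM, and in the read-based table described further on by 0.24, so its direction depends on the table. Cdkn1b differed by -0.93 in TPM and -1.17 in CPM. Its long transcript Cdkn1b-202 (4552 bases) had 475.41 and 978.64 counts, and the short Cdkn1b-201 (2393 bases) had 190.59 and 252.36 counts, so more of the excess in replicate 2 fell on the long one. Ccne2 differed by -0.64 in TPM and -1.44 in CPM, Tpx2 by 0.68 and 1.10, and Ccnd2 by 0.82 and 0.91. The libraries also differed in mitochondrial share and RNA input, and the part of these in the differences was not tested.

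**Figure D3:**
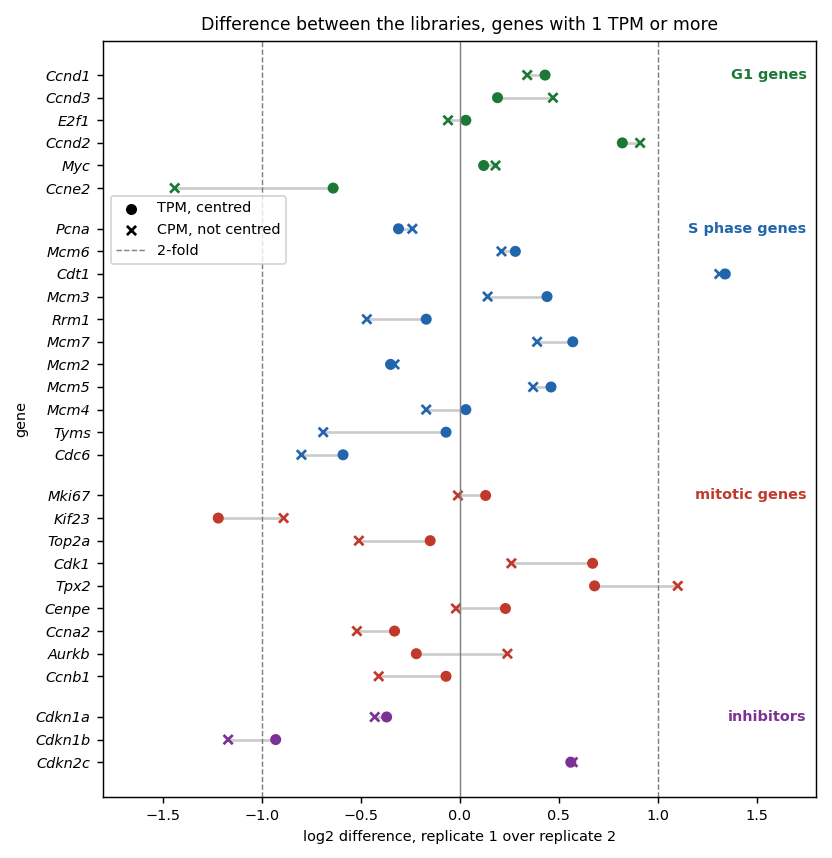
log2 difference of replicate 1 over replicate 2 for the 29 genes with a mean of 1 TPM or more, as centred TPM (circles) and as CPM without centring (crosses), with dashed lines at 2-fold. Cdt1 lies past 2-fold to the right on both scales at 1.34 and 1.31, and Kif23 lies past 2-fold to the left in TPM only at -1.22.

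Of the 113 pathway genes 86 had a mean of 1 TPM or more, against 45.6% of protein-coding genes. In replicate 1, 2 were past 2-fold higher (background 4.51%) and 3 past 2-fold lower (background 2.78%), with backgrounds over all genes. Of the 10050 protein-coding genes at that level, 308 were past 2-fold higher and 112 past 2-fold lower. The clamp loader gene Rfc3 had 6.35 and 2.96 TPM (difference 1.18), and Rpa2, of the single-strand binding protein, had 2.11 and 0.73 TPM (1.13). The centromere histone gene Cenpa had 1.07 and 6.07 TPM (-1.48), the kinetochore gene Nuf2 had 0.35 and 2.66 TPM (-1.15), and Trp53inp1, a p53-induced gene, had 6.63 and 22.29 TPM (-1.32). Neither direction was shared by a whole list.

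Nuclear RNA holds unspliced and partly spliced transcripts, so the class of each transcript was read from the annotation. The 40 genes have 226 annotated transcripts, of which 112 are protein coding and 73 are called retained intron, and 23 transcripts of 18 genes had 1 TPM or more in both libraries. Only Cdk1-204 and Pcna-204 of these 23 lie outside the protein-coding class. The transcript with the highest mean TPM was coding for 36 genes and a retained intron for 4. Among 23 genes at 1 TPM or more with such transcripts, the share of TPM outside the coding class had a median of 31.8% in replicate 1 and 24.7% in replicate 2, against 29.7% and 32.1% over 8227 protein-coding genes. It was 50% or more in both libraries for 3 of the 23, Tyms, Cdk1 and Kif23, against a background of 19.3%. These shares depend on the table: in the read-based table described further on, Tyms had 40.6% and 48.2% and Cdk1 had 26.7% and 37.3% outside the coding class, and only Kif23 of the 3 stayed above 50%, with 98.1% and 93.4%. There Cdt1 had 77.9% and 90.3%, Rrm1 had 71.8% and 75.6%, Top2a had 64.8% and 64.2% and Pcna had 51.1% and 62.9%.

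Pcna had unlike shares of its classes in the libraries. Its retained intron transcript Pcna-204 had 64.19 and 214.24 counts, or 12.81% and 40.87% of the TPM of the gene, while its coding transcript Pcna-201 had 691.57 and 543.36 counts. In TPM of the alignment-based table the coding transcript had 17.70 and 20.41, and Pcna-204 had 2.99 and 14.68. Most of the higher level of Pcna in replicate 2 thus lay in Pcna-204 in that table. In the read-based table Pcna-201 had 3.81 and 9.23 TPM and Pcna-204 had 1.11 and 8.71 TPM, both higher in replicate 2. For Cdk1, the 475-base retained intron transcript Cdk1-204 carried 47.73% and 78.08% of the TPM from only 9.08 and 6.72 counts. Tyms had 98.9% and 90.6% of its TPM outside the coding class in the alignment-based table alone. Top2a had 53.7% and 44.1%, all in processed transcripts. Mki67, Cdkn1b and Cdkn2c have no transcript outside the coding class in the annotation, and Cdkn1a had 1.98% and 2.27%.

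**Figure D4:**
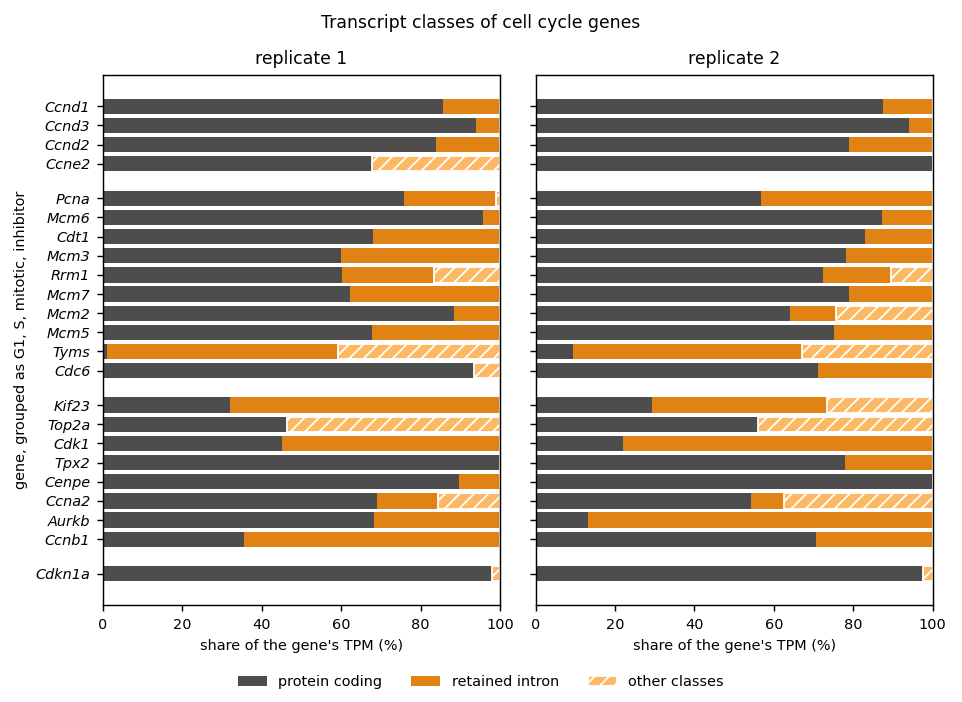
Share of each gene's TPM in the alignment-based table in protein-coding, retained intron and other transcripts, in percent, for replicate 1 on the left and replicate 2 on the right. The bars of Tyms are almost wholly outside the coding class (98.9% and 90.6%, against 40.6% and 48.2% in the read-based table, which is not drawn), and the retained intron part of Pcna is wider in replicate 2 (43.2%) than in replicate 1 (23.2%).

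The authors also deposited a transcript table estimated from the reads directly. Over 11281 protein-coding genes with 10 or more counts, its counts were a median of 1.27 times those of the alignment-based table in replicate 1 and 1.74 times in replicate 2, and over 39 of the 40 genes 1.35 and 2.00 times. In 3 genes they were at least 3 times as many in both libraries, against a background of 3.79%. Birc5 was 11.9 and 16.5 times higher, Kif23 6.38 and 4.27 times and Tyms 4.9 and 5.52 times. In Birc5 the gain lay in Birc5-202, with 354 and 511 counts against 17.97 and 27.88. In Kif23 much of it lay in Kif23-202, with 389 and 244 counts against 0 in both libraries, and in replicate 2 also in Kif23-203, with 122 counts against 0. In Tyms it lay mostly in Tyms-201, with 194 and 282 counts against 1.15 and 8.36. Some of the 31-base words of these transcripts occur in 10 or more genes, 56 of Birc5-202, 20 of Kif23-202 and 228 of Tyms-201. The part of such repeated words in the excess was not tested, so the levels of Birc5, Kif23 and Tyms depend on the table used.

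**Figure D5:**
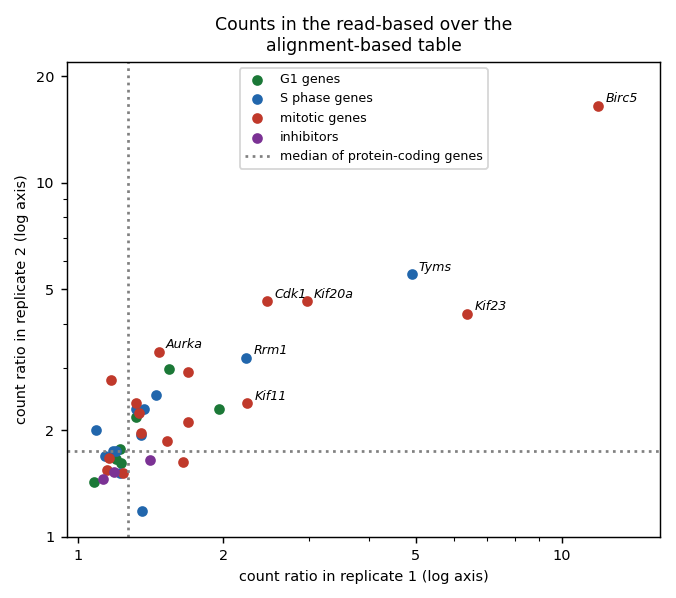
Counts of each gene in the read-based table divided by those in the alignment-based table, in replicate 1 (horizontal, log axis) and replicate 2 (vertical, log axis), with dotted lines at the medians of protein-coding genes, 1.27 and 1.74. Birc5 lies at 11.9 and 16.5, and Kif23 and Tyms lie next, apart from the other genes.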

How the data were processed

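Ribosomal RNA-depleted total RNA of the nuclear fraction was sequenced in 2 libraries of 1 group, numbered as in the labels. The deposited gene and transcript tables were made on mm10 with GENCODE M21, per the text files deposited with them. They hold expected counts, which are estimated counts that need not be whole, and TPM, per the file headers, and an isoform percent, deposited by the authors, that divides a gene's TPM among its transcripts. The authors also deposited a transcript table made from reads directly, again with estimated counts and TPM in its header. The names and versions of aligner and quantifiers and the use of strand were not given in the sources used here.

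From these, means and SD of the 2 libraries were computed per gene, CPM over counts in Ensembl genes, log2 differences with a pseudocount of 1 TPM over genes with a mean of 1 TPM or more, minus their median, and shares of counts with 95% Wilson intervals (counting error only, since reads are not independent molecules). Entries outside genes held 0.581% and 0.434% of counts and stayed out. A difference past 2-fold was counted as called. A chi-square test of rounded counts over 14355 genes gave 91.2 per degree of freedom between the libraries, so they are not a single library deposited again. Words of 31 bases and exon overlaps came from GENCODE M21, and promoters and their motifs from RefSeq (GRCm38.p6).

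The members, pathway lists and marker lists were chosen with earlier results of these data known. Named were all 40 genes, the 3 genes with the highest mean TPM of each pathway list and those past 2-fold, and the 2 highest of each marker list, of which 1 gene is not reported here. Alternatives tried were no filter, at least 10 counts per library, pseudocounts of 0.1 and 5, no centring, centring on protein-coding genes, the read-based table, rescaling TPM after removal of mitochondrial genes and of those under 200 bases, TMM-scaled rounded counts (edgeR 4.0.16 in R 4.3.3), CPM, and leaving out each replicate. The difference procedure was tested on simulated data. Other steps used matplotlib 3.10.9, scipy 1.17.1, pandas 2.3.3 and numpy 2.4.6 in Python 3.11.15. Sex and age were not collected, and no model across samples was fitted.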

Additional observations from a re-analysis of the deposited data

How the results depend on the processing

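No paired analysis was possible because there is 1 group of 2 libraries. Leaving out a replicate gives no value for a difference between the libraries, and for levels it gave a median of 2.77 to 2.98 TPM for the S phase genes, against 3.01 with both. In the read-based table the median was 2.22 TPM for the G1 genes, against 3.92, and 1.97 TPM for the S phase genes. Rescaling without mitochondrial and short genes gave 3.73 TPM for the S phase genes. The inhibitor median was 5.50 TPM in the read-based table, against 11.6 TPM, and 6.58 to 16.7 TPM with 1 replicate left out, and the mitotic median was 0.850 TPM, against 1.06 TPM. The count of genes at 1 TPM or more stayed within 1.5 times of 29. The median difference changed sign for the G1 genes without centring (-0.13, against 0.16), for the mitotic genes with a pseudocount of 5 (0.05, against -0.07), TMM scaling (0.11) and the read-based table (0.15), and for the S phase genes, at 0.03 as reported, over a range of -0.26 without centring to 0.21 in the read-based table. That of the inhibitors was below 0 under every alternative, from -0.66 to -0.29. Genes past 2-fold higher in replicate 1, 1 as reported, were 0 with a pseudocount of 5, 3 with TMM scaling (Ccnd2, Cdt1 and Tpx2) and 2 in CPM (Cdt1 and Tpx2). Those past 2-fold lower, 1 as reported, were 3 with a pseudocount of 0.1 (Ccne2, Cdc6 and Kif23), 0 with a pseudocount of 5 and in the read-based table, and 2 without the filter, without centring (Cdkn1b and Kif23 in both), with TMM scaling and in CPM (Ccne2 and Cdkn1b in both). Cdt1 stayed past 2-fold except with a pseudocount of 5, at 0.78. Kif23 was at -0.62 with a pseudocount of 5, -0.78 with TMM scaling and -0.89 in CPM, and reversed to 0.24 in the read-based table. The cause of these changes was not tested. Depth limits the 18 genes with under 100 counts in both libraries, 12 of them mitotic.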
